A study of Rattus norvegicus with 11 samples.

Results

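The necroptosis genes were examined in the striatum of rats with intracerebral hemorrhage. The set held 8 genes, Ripk1, Ripk3, Mlkl, Zbp1, Fadd, Casp8, Cflar and Casp4, chosen by symbol among the 30560 genes of the expression table. Each symbol matched 1 gene, and all 8 were among the 15742 genes with enough counts to be tested. At day 3, RNA was taken from the striatum of 11 adult male Sprague Dawley rats, on the injected side in the hemorrhage groups, and each rat gave 1 library. The 3 rats of the common hemorrhage group (IC) had received 0.2 U of collagenase VII-S in 1.0 μL in the right striatum, where the enzyme breaks down the vessel wall and causes bleeding. The 3 rats of the severe group (IS) had received 0.6 U in 3.0 μL. The 3 rats of the aspiration group (IS-HA) had received the IS dose, and 150 μL of the hematoma, about 75%, had been withdrawn through a catheter at 6 h. The 2 Normal rats had no injection and no aspiration, so the hemorrhage groups differ from them by surgery, enzyme and blood together, and these cannot be told apart. All animals were of 1 strain and sex and carried no altered gene.

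Necroptosis is a lytic form of programmed cell death. A death receptor brings the kinases RIPK1 and RIPK3 together, while a Toll-like receptor or the nucleic acid sensor ZBP1 can reach RIPK3 without a death receptor. RIPK3 phosphorylates the pseudokinase MLKL, and MLKL then breaches the plasma membrane and releases the contents of the cell. The route is held in check by caspase-8, which is recruited by the adaptor FADD and, paired with the long form of cFLIP (the product of Cflar), cleaves the kinases. In the brain the pathway has been studied mostly in microglia, macrophages, neurons and oligodendrocytes after injury. RNA levels report none of the phosphorylation or cleavage steps on which the pathway turns.

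The start regions of the genes were compared because the members fell into those with large and those with small differences from Normal. Promoter sequence was found for 5 of the 8 genes in RefSeq (build GRCr8, 250 bases before to 50 after the start), namely Ripk1, Ripk3, Mlkl, Fadd and Cflar. Casp8, Zbp1 and Casp4, for which none was found, all belonged to the members with large differences. Only Ripk3 and Mlkl therefore stand for those members here. Ripk3 and Mlkl are shown with Fadd. Among these 5 genes they have the 2 lowest contents of CpG dinucleotides (C followed by G, in capitals), and Fadd has the highest. The region of Ripk3 is chr15:33261976-33262275 on the minus strand and holds 2 CpG, with an observed to expected ratio of 0.10. The region of Mlkl is chr19:56213809-56214108 on the minus strand and holds 5 CpG, with a ratio of 0.23. The region of Fadd is chr1:209174880-209175179 on the minus strand and holds 26 CpG, with a ratio of 0.99.
Ripk3: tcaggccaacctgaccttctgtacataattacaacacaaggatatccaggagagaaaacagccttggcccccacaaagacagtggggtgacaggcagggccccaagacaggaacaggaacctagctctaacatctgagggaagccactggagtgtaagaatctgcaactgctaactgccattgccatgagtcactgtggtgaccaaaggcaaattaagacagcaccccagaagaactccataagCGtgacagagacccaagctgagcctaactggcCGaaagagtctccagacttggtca
Mlkl: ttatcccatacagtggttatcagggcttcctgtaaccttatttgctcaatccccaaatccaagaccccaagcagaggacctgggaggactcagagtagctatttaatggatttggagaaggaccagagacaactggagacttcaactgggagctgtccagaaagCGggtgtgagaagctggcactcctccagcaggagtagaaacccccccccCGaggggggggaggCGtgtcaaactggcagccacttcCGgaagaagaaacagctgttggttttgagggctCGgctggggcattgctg
Fadd: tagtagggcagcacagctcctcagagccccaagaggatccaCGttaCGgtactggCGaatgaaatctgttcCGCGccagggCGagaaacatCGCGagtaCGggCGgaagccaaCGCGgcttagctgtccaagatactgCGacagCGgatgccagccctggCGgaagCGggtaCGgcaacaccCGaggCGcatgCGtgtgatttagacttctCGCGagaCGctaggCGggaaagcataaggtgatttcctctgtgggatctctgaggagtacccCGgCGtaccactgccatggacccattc
Over 33365 rat promoters of the same length the median ratio was 0.39. A lower ratio than that of Ripk3 was found in 12.7% of promoters, lower than that of Mlkl in 30.8%, lower than that of Cflar in 65.6%, lower than that of Ripk1 in 86.3% and lower than that of Fadd in 94%. The 5 sequences are too few for a test, and the order is given as a description. A link between CpG content and the size of the difference from Normal was not tested.

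The promoter of Cflar, chr9:67679299-67679598 on the plus strand, is shown because it held the only match among the 5 to the core of the interferon-stimulated response element, searched on both strands as GAAANNGAAA. The match is in capitals and begins 24 bases after the start.
Cflar: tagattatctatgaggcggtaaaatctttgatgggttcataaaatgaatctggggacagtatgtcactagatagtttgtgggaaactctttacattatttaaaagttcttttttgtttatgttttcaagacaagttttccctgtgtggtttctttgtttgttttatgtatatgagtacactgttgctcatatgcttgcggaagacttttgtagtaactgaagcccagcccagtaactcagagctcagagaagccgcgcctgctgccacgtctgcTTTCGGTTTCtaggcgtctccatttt
This motif was present in 3.92% of the 33365 promoters. The gamma-activated site, searched as TTCNNNGAA, was present in 8.88% of them and in 0 of the 5. A match says only that these letters stand in the window.

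The depth of the libraries ranged from 6701301 to 18817645 counts, and the 2 Normal libraries, with 17379496 and 18486883, were among the deepest. IS-HA replicate 2 was the shallowest library and stood apart from the other rats of its group. Its counts differed from theirs by a chi-square per degree of freedom of 87.74 and 67.88, against 11.51 between those other rats, and its summed neutrophil markers reached 864 TPM (a transcript level scaled by gene length and library) against 170 and 218. To a lesser degree IS replicate 4, at 7448205 counts, stood apart in IS, at 46.65 and 42.13 against 16.08. In IC the same held for replicate 3, at 41.3 and 27.8 against 16.37. Striatal identity was clear in every library, with the dopamine receptor gene Drd1 at 222 to 266 TPM in Normal, 89.1 to 165 in IC, 30.4 to 88.1 in IS and 36.7 to 101 in IS-HA. In bulk tissue, fewer cells of a type and less RNA per cell cannot be told apart.

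Against Normal, the kinase Ripk3, the executioner Mlkl, the sensor Zbp1, the protease Casp8 and the inflammatory caspase Casp4 rose in all 3 hemorrhage groups, by 4.54-fold (Casp8 in IC) to 24.3-fold (Ripk3 in IS). The upstream kinase Ripk1 and the adaptor Fadd rose in IS and IS-HA by 2.05-fold to 2.83-fold. Cflar, the partner of Casp8, did not pass the test in any comparison. In IC, 5 of 8 members rose, where 10.9% of all tested genes did. In IS, 7 of 8 rose against 18.8% of all tested genes, and in IS-HA, 7 of 8 rose against 15.1%. The IS-HA count went from 7 to 4 without either Normal rat, and the IC count from 5 to 3 without Normal replicate 3. A gene was called higher at an adjusted p under 0.05 (edgeR's quasi-likelihood test, Benjamini-Hochberg over 15742 genes) and a log2 fold change of at least 1. None of the members was called lower, where 2.66%, 17% and 7.71% of tested genes were. The median log2 fold change of the 8 members was 2.39 in IC, 2.72 in IS and 2.67 in IS-HA, beside medians of 0.00, 0.02 and 0.06 over all genes tested. These 3 comparisons share the same 2 Normal rats. The members were chosen with earlier results of these data known, so the shares of all genes are given as a description only. On the CPM scale (counts scaled to a common library size) all rats of a hemorrhage group lay above both Normal rats for 7 members in each of IC, IS and IS-HA, where 32.4%, 37.6% and 31.7% of tested genes did so, and below them for 1 member, Cflar, in IS alone, where 36.9% of tested genes did.

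**Figure D1:**
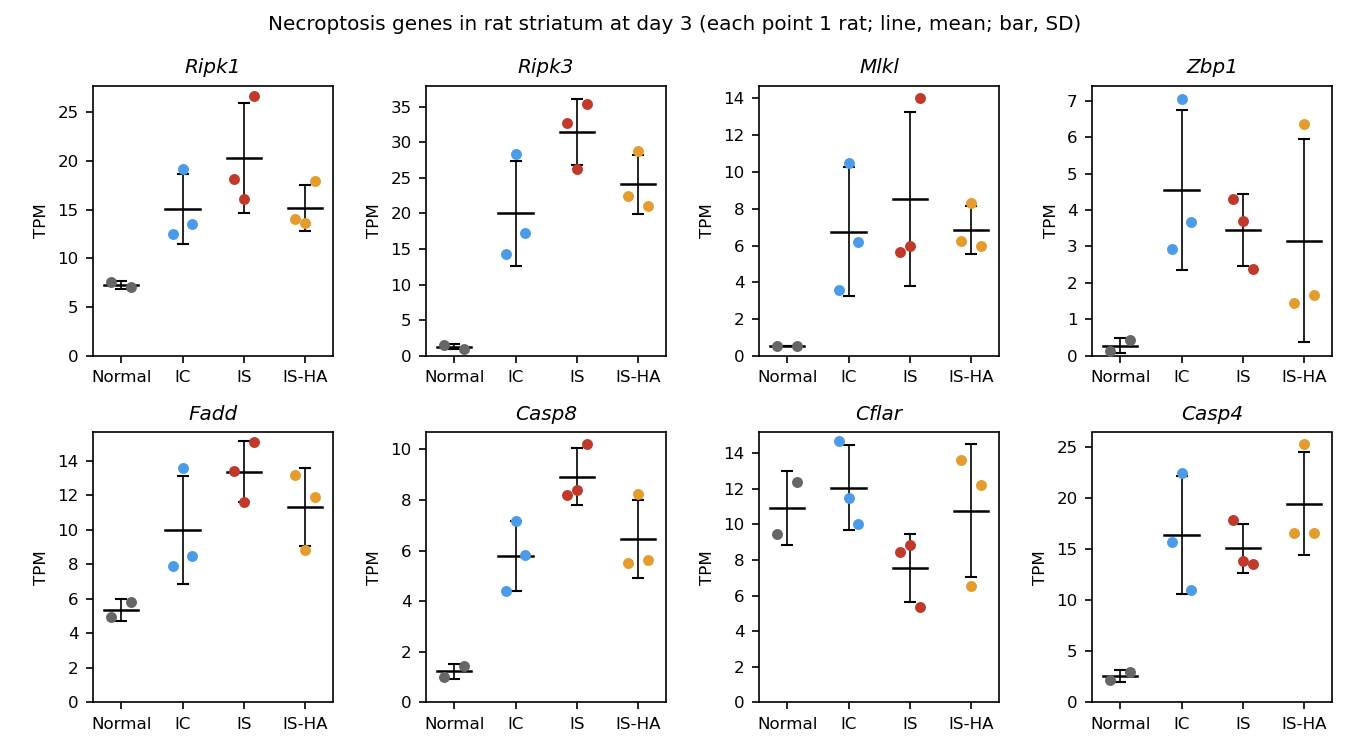
TPM of the 8 genes on the y axis for each of the 11 rats, grouped on the x axis as Normal (n = 2), IC, IS and IS-HA (n = 3 each), with 1 point per rat, the group mean as a line and the SD as a bar. In each panel but that of Cflar, the 9 hemorrhage rats lie above both Normal rats.

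Ripk3, the kinase that commits a cell to necroptosis, was at 1.56 and 1.03 TPM in the Normal rats (replicates 1 and 3). It was at 14.3, 28.4 and 17.3 TPM in IC replicates 2, 3 and 4, at 32.7, 26.3 and 35.4 in IS replicates 2, 3 and 4, and at 22.4, 28.8 and 21.1 in IS-HA replicates 1, 2 and 3. Every hemorrhage rat lay far above both Normal rats, and IS held the highest rat. The log2 fold change against Normal was 3.87 (SE 0.42, adjusted p = 0.000226) in IC, 4.60 (SE 0.43, adjusted p = 4.44e-05) in IS and 4.22 (SE 0.43, adjusted p = 0.000108) in IS-HA by edgeR. Among the 8 members it was the fifth by TPM in Normal and the first in each hemorrhage group. In RefSeq the gene overlaps Nfatc4 over 5114 bases. Nfatc4 also rose, by a log2 of 2.32 (SE 0.38, adjusted p = 0.000819) in IS, and since the strand setting of the counting is not given in the sources used here, the part of shared reads in the Ripk3 values was not tested.

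Mlkl, whose product is the substrate of RIPK3 that ruptures the membrane, was at 0.553 and 0.522 TPM in the Normal rats, on 13 and 12 counts. It was at 3.57, 10.5 and 6.21 TPM in IC replicates 2, 3 and 4, at 5.65, 5.95 and 14 in IS replicates 2, 3 and 4, and at 6.26, 8.33 and 5.96 in IS-HA replicates 1, 2 and 3. The hemorrhage rats were all above Normal, but within IC and IS 1 rat each (IC replicate 3 and IS replicate 4) was well above the others. edgeR gave a log2 fold change of 3.57 (SE 0.64, adjusted p = 0.00352) in IC, 4.00 (SE 0.65, adjusted p = 0.000834) in IS and 3.66 (SE 0.65, adjusted p = 0.00238) in IS-HA. The IC call was lost without Normal replicate 3, at a log2 of 3.47 and an adjusted p of 0.0575.

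Ripk1, the kinase shared by survival, apoptotic and necroptotic signals, was expressed at 7.56 and 7.02 TPM in Normal, above Ripk3 and Mlkl. It was at 12.5, 19.2 and 13.5 TPM in IC replicates 2, 3 and 4, at 18.1, 16.1 and 26.7 in IS replicates 2, 3 and 4, and at 14, 13.6 and 17.9 in IS-HA replicates 1, 2 and 3. Hemorrhage and Normal rats did not overlap, and the ranges of the 3 hemorrhage groups did. Its log2 fold change was 1.50 (SE 0.29, adjusted p = 0.00196) in IS and 1.03 (SE 0.28, adjusted p = 0.0194) in IS-HA. In IC it was 0.98 (SE 0.28, adjusted p = 0.0355), just under the fold cutoff. The IS-HA value sits as close above it, and the call was lost in 7 of 17 alternatives, with values from 0.92 to 1.15, among them those without either Normal rat, without IS-HA replicate 2 (0.98) or without IS-HA replicate 3 (0.95). Ripk1 overlaps Serpinb6a over 357 bases.

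Zbp1, which senses left-handed nucleic acids and recruits RIPK3, was the scarcest member in every group. It was at 0.138 and 0.423 TPM in the Normal rats, on only 2 and 6 counts. It was at 2.93, 7.05 and 3.66 TPM in IC replicates 2, 3 and 4, at 4.3, 3.69 and 2.37 in IS replicates 2, 3 and 4, and at 1.46, 6.36 and 1.67 in IS-HA replicates 1, 2 and 3. All hemorrhage rats were above Normal, and 1 rat in each of IC and IS-HA was far above the other two. By edgeR the log2 fold change was 3.92 (SE 0.89, adjusted p = 0.0127) in IC, 3.60 (SE 0.90, adjusted p = 0.0078) in IS and 3.49 (SE 0.91, adjusted p = 0.0157) in IS-HA. Since the 2 Normal rats held 8 counts together, the ratio of pooled CPM to Normal was also taken, at 18.3 in IC (95% exact interval 9.08 to 43), 14.1 in IS (6.86 to 33.6) and 10.3 in IS-HA (4.94 to 24.6). These intervals cover counting error only. Leaving out Normal replicate 1 ended the call in all 3 comparisons (adjusted p = 0.101 in IC, 0.0617 in IS and 0.101 in IS-HA by edgeR). Leaving out Normal replicate 3 ended it in IC (adjusted p = 0.0787) and IS-HA (adjusted p = 0.0718), where a fit of only the groups compared also lost it (a log2 of 3.48, adjusted p = 0.076), and without IS-HA replicate 2 the IS-HA value was 2.31 (adjusted p = 0.0208).

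Fadd, the adaptor that joins death receptors to caspase-8, was at 4.92 and 5.83 TPM in Normal. It was at 7.89, 13.6 and 8.51 TPM in IC replicates 2, 3 and 4, at 13.4, 11.6 and 15.1 in IS replicates 2, 3 and 4, and at 13.2, 8.84 and 11.9 in IS-HA replicates 1, 2 and 3. Each hemorrhage rat was above both Normal rats, by a smaller margin than for Ripk3. On the log2 scale the fold change was 1.34 (SE 0.25, adjusted p = 0.00192) in IS and 1.05 (SE 0.25, adjusted p = 0.0107) in IS-HA, and 0.83 (SE 0.25, adjusted p = 0.042) in IC, under the fold cutoff. In IS-HA the call was lost without Normal replicate 1 (adjusted p = 0.0757), without Normal replicate 3 (adjusted p = 0.0747) and without IS-HA replicate 1 (a log2 of 0.99), all by edgeR.

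Casp8, the protease that starts death receptor apoptosis and restrains necroptosis, was at 1.01 and 1.44 TPM in Normal. It was at 4.39, 7.17 and 5.82 TPM in IC replicates 2, 3 and 4, at 8.18, 8.38 and 10.2 in IS replicates 2, 3 and 4, and at 5.5, 8.23 and 5.64 in IS-HA replicates 1, 2 and 3. The 3 IS rats were above all IC rats, and IS-HA replicate 2 reached the IS range. The log2 fold change against Normal was 2.18 (SE 0.39, adjusted p = 0.00354) in IC, 2.88 (SE 0.40, adjusted p = 0.000364) in IS and 2.41 (SE 0.40, adjusted p = 0.00164) in IS-HA.

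Cflar, the gene of cFLIP, which resembles caspase-8 without its catalytic activity, ran apart from the other members. It was at 9.46 and 12.4 TPM in Normal, the highest member there. It was at 14.7, 11.5 and 10 TPM in IC replicates 2, 3 and 4, at 8.45, 8.82 and 5.38 in IS replicates 2, 3 and 4, and at 13.6, 6.53 and 12.2 in IS-HA replicates 1, 2 and 3. The IS rats were all below the Normal and the IC rats, whereas IC and IS-HA overlapped Normal. The log2 fold change against Normal was 0.09 (SE 0.27, adjusted p = 0.848) in IC, -0.52 (SE 0.27, adjusted p = 0.134) in IS and -0.05 (SE 0.27, adjusted p = 0.887) in IS-HA. The sign in IC and IS-HA depended on the alternative, and in IS-HA it turned positive with library size alone (0.09). In RefSeq, Cflar overlaps Casp8 over 118 bases and a long noncoding RNA gene over 7895 bases, and the counts do not separate its long and short isoforms.

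Casp4, the caspase that senses cytosolic lipopolysaccharide and drives pyroptosis rather than necroptosis, was at 2.2 and 3 TPM in Normal. It was at 15.7, 22.5 and 11 TPM in IC replicates 2, 3 and 4, at 17.9, 13.9 and 13.6 in IS replicates 2, 3 and 4, and at 16.6, 25.3 and 16.6 in IS-HA replicates 1, 2 and 3. The hemorrhage groups overlapped one another, and the highest rat was IS-HA replicate 2. The log2 fold change was 2.59 (SE 0.39, adjusted p = 0.00122) in IC, 2.55 (SE 0.39, adjusted p = 0.000595) in IS and 2.93 (SE 0.40, adjusted p = 0.000506) in IS-HA.

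Set in order of mean TPM, the members in Normal ran from Cflar (10.9 ± 2.09, SD, n = 2) through Ripk1 (7.29 ± 0.379), Fadd (5.37 ± 0.647), Casp4 (2.6 ± 0.565), Ripk3 (1.3 ± 0.376), Casp8 (1.23 ± 0.301) and Mlkl (0.538 ± 0.022) to Zbp1 (0.28 ± 0.202). In that order the rats overlapped between Ripk3 and Casp8, and between no other neighbours. In IS the order was Ripk3 (31.5 ± 4.69, SD, n = 3), Ripk1 (20.3 ± 5.63), Casp4 (15.2 ± 2.4), Fadd (13.4 ± 1.78), Casp8 (8.9 ± 1.09), Mlkl (8.52 ± 4.72), Cflar (7.55 ± 1.89) and Zbp1 (3.45 ± 0.991). There the ranges overlapped between all neighbours but 2 pairs, Fadd above Casp8 and Cflar above Zbp1. Compared within each IS rat, Ripk3 also stood above Ripk1, and Ripk1 above Casp4, though by only 18.1 to 17.9 TPM in IS replicate 2. The order of the remaining neighbours differed between IS rats. The members did not share 1 leading rat, since IC replicate 3 was the highest of IC for 7 of 8, IS replicate 4 the highest of IS for 5 and IS-HA replicate 2 the highest of IS-HA for 5. IS replicate 4 and IS-HA replicate 2 were each the lowest of their group for the remaining 3, in both cases with Cflar among them.

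**Figure D2:**
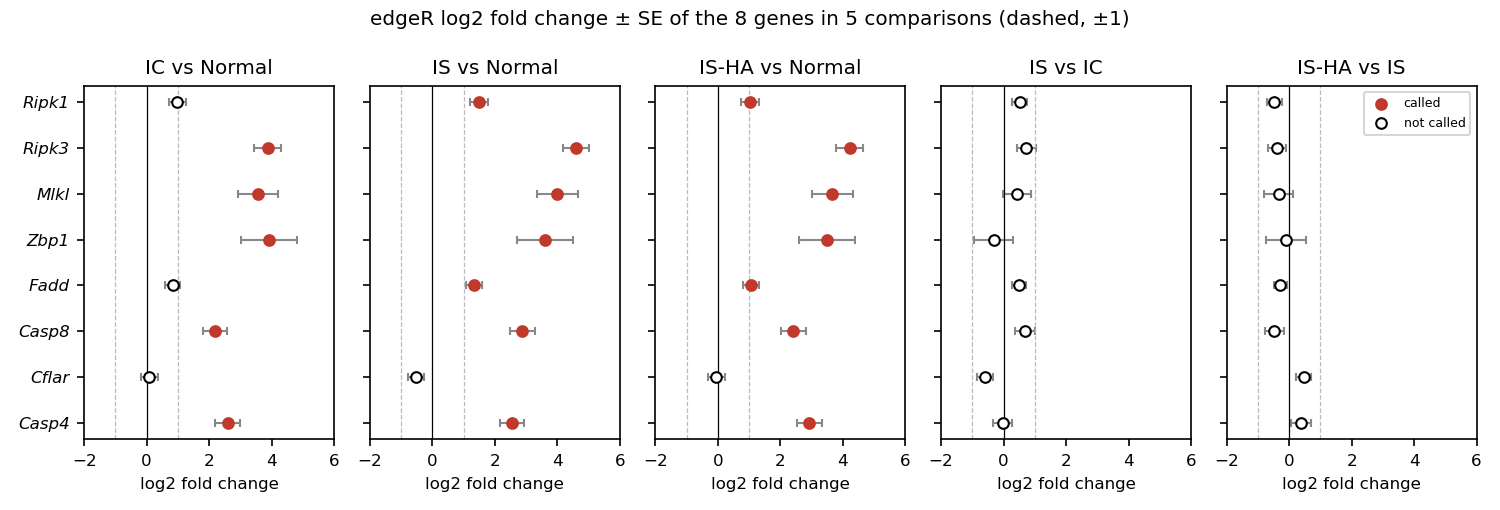
edgeR log2 fold change on the x axis (point, with its SE as a bar) of the 8 genes on the y axis in 5 comparisons, with filled points for calls, open points for genes not called and dashed lines at a log2 of 1 and -1. The first 3 panels hold 5, 7 and 7 filled points, and the last 2 hold 0.

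The effect of severity was asked by setting IS against IC. No member was called, where 0% of the 15742 tested genes were called by edgeR. At an unadjusted p under 0.05 stood 4 of 8 members, where 22.2% of all tested genes did, and DESeq2 called 0 members and 610 genes. The 4 were Ripk3 at a log2 fold change of 0.73 (SE 0.30, adjusted p = 0.198), Casp8 at 0.69 (SE 0.31, adjusted p = 0.222), Fadd at 0.50 (SE 0.22, adjusted p = 0.213) and Cflar at -0.60 (SE 0.25, adjusted p = 0.197). Ripk1 was at 0.52 (SE 0.24), Mlkl at 0.43 (SE 0.46), Zbp1 at -0.32 (SE 0.61) and Casp4 at -0.03 (SE 0.30), each with an adjusted p of 0.235 or above. On the CPM scale the IS rats lay above all IC rats for 2 members, Ripk3 and Casp8, where 19.2% of tested genes did so, and below them for 1, Cflar, where 18.7% did. For Mlkl the direction rested on IS replicate 4, and without that rat the value was -0.19.

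The effect of aspiration was asked by setting IS-HA against IS, a comparison that shares the IS rats with the one before. No member was called by edgeR, where 0.00635% of tested genes were called higher and 0% lower, and 0 members stood at an unadjusted p under 0.05 (8.94% of all tested genes did). DESeq2 also called 0 members. The log2 fold changes were negative for 6 members, -0.47 (SE 0.24) for Ripk1, -0.39 (SE 0.30) for Ripk3, -0.34 (SE 0.47) for Mlkl, -0.47 (SE 0.31) for Casp8, -0.11 (SE 0.64) for Zbp1 and -0.28 (SE 0.22) for Fadd. They were positive for 2, 0.46 (SE 0.25) for Cflar and 0.38 (SE 0.31) for Casp4, and every adjusted p was 0.569 or above. On the CPM scale the IS-HA rats lay below all IS rats for 1 member, Ripk1, where 5.42% of tested genes did so. In TPM the IS-HA rats overlapped the IS rats for all 8 members, and they overlapped the IC rats for all 8 as well.

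The aspiration values moved with IS-HA replicate 2. Without it Zbp1 stood at -1.30 (adjusted p = 0.101), Casp8 at -0.83 (adjusted p = 0.0817), Ripk3 at -0.68 (adjusted p = 0.133), Mlkl at -0.64 (adjusted p = 0.392), Ripk1 at -0.51 (adjusted p = 0.214) and Fadd at -0.24 (adjusted p = 0.497), while Cflar stood at 0.62 (adjusted p = 0.102) and Casp4 at -0.02 (adjusted p = 0.97). No member was called, and 481 genes in all were, against 1 with the library. In the same fit Ripk3, Casp8 and Cflar were at 0.73, 0.69 and -0.60 in IS against IC, with adjusted p of 0.0666, 0.0703 and 0.0698, and 964 genes were called in place of 0.

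Since cFLIP and caspase-8 act as partners and RIPK3 is a kinase that they restrain, 3 ratios of TPM within each rat were compared between the 9 hemorrhage rats and the 2 Normal rats. The Cflar to Casp8 ratio was 8.97 ± 0.502 (SD, n = 2) in Normal, 2.22 ± 0.969 (n = 3) in IC, 0.87 ± 0.295 in IS and 1.81 ± 0.892 in IS-HA. The Normal rats, at 8.62 and 9.33, were above every hemorrhage rat, of which the highest stood at 3.34. The log2 difference was -2.57, with a two-sided exact permutation p = 0.0364, the smallest that 9 against 2 rats can give, and 0.0546 after adjustment over the 3 ratios. The Ripk3 to Casp8 ratio was 1.13 ± 0.583 in Normal, 3.4 ± 0.509 in IC, 3.54 ± 0.432 in IS and 3.77 ± 0.291 in IS-HA. Its log2 difference was 1.75 with the same exact p = 0.0364 (adjusted 0.0546), and it was higher than in both Normal rats in 9 of 9 hemorrhage rats. The Mlkl to Ripk3 ratio was 0.431 ± 0.107 in Normal, 0.326 ± 0.0666 in IC, 0.264 ± 0.115 in IS and 0.284 ± 0.00529 in IS-HA, with a log2 difference of -0.70 (exact permutation p = 0.0727, adjusted 0.0727). None of the 3 passed 0.05 after adjustment. In bulk tissue the genes of a ratio can be expressed in different cell types, so a ratio does not give their balance within a cell. The part of the cell mixture in these ratios was not tested.

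**Figure D3:**
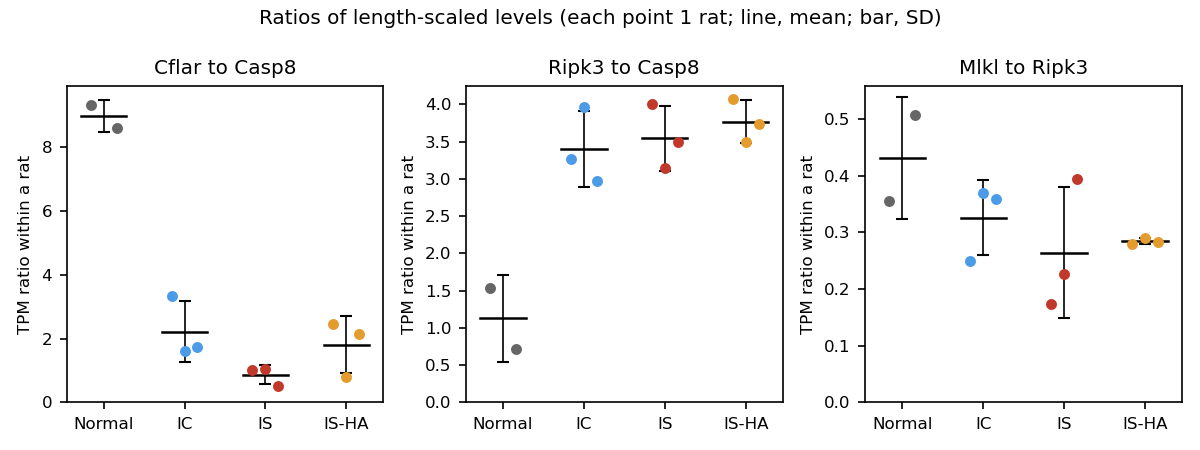
Ratio of TPM within a rat on the y axis for 3 gene pairs, by group on the x axis, with 1 point per rat, the mean as a line and the SD as a bar. The Cflar to Casp8 ratio is 8.62 and 9.33 in the Normal rats and at most 3.34 in the 9 hemorrhage rats, and the Ripk3 to Casp8 ratio is 0.715 and 1.54 in Normal and at least 2.97 in the others.

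Markers of the cell types in the tissue also differed from Normal in the hemorrhage groups. Their summed TPM was higher for microglia and macrophages, neutrophils, and T and NK cells. For neurons, medium spiny neurons and oligodendrocytes it was lower. Gene by gene, edgeR called 4 of 12 neuronal markers lower in IC, 11 in IS and 4 in IS-HA. Of 9 medium spiny neuron markers it called 1, 8 and 8 lower, and of 8 oligodendrocyte markers 0, 3 and 0. Of all tested genes 2.66%, 17% and 7.71% were called lower. The 12 of 12 microglia and macrophage markers found summed to 217 to 288 TPM in Normal, 1850 to 2670 in IC, 3200 to 4980 in IS and 2340 to 3880 in IS-HA, with none at 0 and the highest rats of IC, IS and IS-HA being IC replicate 3, IS replicate 4 and IS-HA replicate 2. The 10 neutrophil markers summed to 5.03 to 5.23, 86 to 269, 504 to 700 and 170 to 864 TPM, though Ltf was at 0 in every library and Mpo in every Normal, IC and IS library. Of the T and NK cell markers, 8 of 10 were in the table and summed to 1.04 to 1.86, 43.7 to 134, 174 to 463 and 81.8 to 210 TPM. Gzma was at 0 in every Normal, IC and IS library. Only 5 markers had enough counts to be tested, and these differed widely. edgeR called 1 of the 5 higher in IC, 3 in IS and 2 in IS-HA, where 10.9%, 18.8% and 15.1% of all tested genes were. The log2 fold changes of the 5 against Normal ran from 0.13 to 8.98 in IC (median 2.24). They ran from 0.69 to 10.72 in IS (median 3.63) and from 0.47 to 9.67 in IS-HA (median 3.55). The 12 neuronal markers summed to 4200 to 5400, 1830 to 2820, 807 to 2280 and 1620 to 3000 TPM, and the 8 oligodendrocyte markers to 17900 to 18400, 10900 to 15600, 6580 to 11000 and 10300 to 15300 TPM. The 8 astrocyte markers, the 8 endothelial markers and the 9 markers of striatal medium spiny neurons were all measured, with none at 0. The astrocyte markers summed to 4420 to 4720 TPM in Normal, 7520 to 9660 in IC and 3950 to 7430 in IS. In IS-HA they summed to 5890 to 7660 TPM. The sums of IC and IS-HA were above Normal and those of IS overlapped it, but the 8 markers did not move together. In each hemorrhage group edgeR called 1 of them higher and 1 lower. Gene by gene, log2 differences from Normal spanned -1.89 to 3.42 in IC (median 0.01). They spanned -3.74 to 3.15 in IS (median -0.52) and -2.18 to 3.11 in IS-HA (median -0.03). The endothelial markers summed to 123 to 172, 207 to 239, 212 to 245 and 198 to 260 TPM, and those of medium spiny neurons to 6300 to 6720, 2780 to 5500, 1350 to 3570 and 1360 to 3030 TPM, in the same order of groups. Of the 8 endothelial markers edgeR called 1 higher in each hemorrhage group, where 10.9%, 18.8% and 15.1% of all tested genes were. Their log2 differences from Normal ran from -0.09 to 1.25 in IC, -0.58 to 1.78 in IS and -0.60 to 1.56 in IS-HA. Of the erythroid markers 5 of 9 were in the table, with sums of 54.4 to 58.1 TPM in Normal, 39.1 to 165 in IC, 25.2 to 38.9 in IS and 15.7 to 32.4 in IS-HA. The part of these shifts in the members' values was not tested.

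The members were also expressed per 1000 TPM of the microglia and macrophage markers, as a description. These markers were themselves higher in every hemorrhage group, and the members can be expressed in other cells too. The scale therefore does not give a level per microglial cell or macrophage. Ripk3 was at 4.75 to 5.42 in Normal and at 7.37 to 10.6 in IC, 7.11 to 10 in IS and 7.42 to 9.57 in IS-HA, so it exceeded Normal on this scale also. Mlkl was at 1.92 to 2.41 in Normal and at 1.93 to 3.93, 1.74 to 2.8 and 2.15 to 2.68 in IC, IS and IS-HA, and overlapped Normal. Casp8 was lower than in Normal (3.52 to 6.65), at 2.38 to 2.69, 2.04 to 2.62 and 2.12 to 2.35. Ripk1 went from 26.2 to 32.4 in Normal to 3.5 to 7.17 over the hemorrhage groups, and Fadd from 17.1 to 26.9 to 2.28 to 5.65. Cflar went from 32.8 to 57.3 in Normal to 4.28 to 7.94 in IC, 1.08 to 2.76 in IS and 1.69 to 5.82 in IS-HA. Zbp1 was at 0.479 to 1.95 in Normal and at 1.56 to 2.64 in IC, 0.475 to 1.32 in IS and 0.624 to 1.64 in IS-HA, and overlapped Normal in each. Casp4 was at 7.63 to 13.8 in Normal and at 4.69 to 8.48 in IC, which overlapped it, and at 2.73 to 5.51 in IS and 6.52 to 7.08 in IS-HA, both wholly below Normal on this scale although its TPM was higher.

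**Figure D4:**
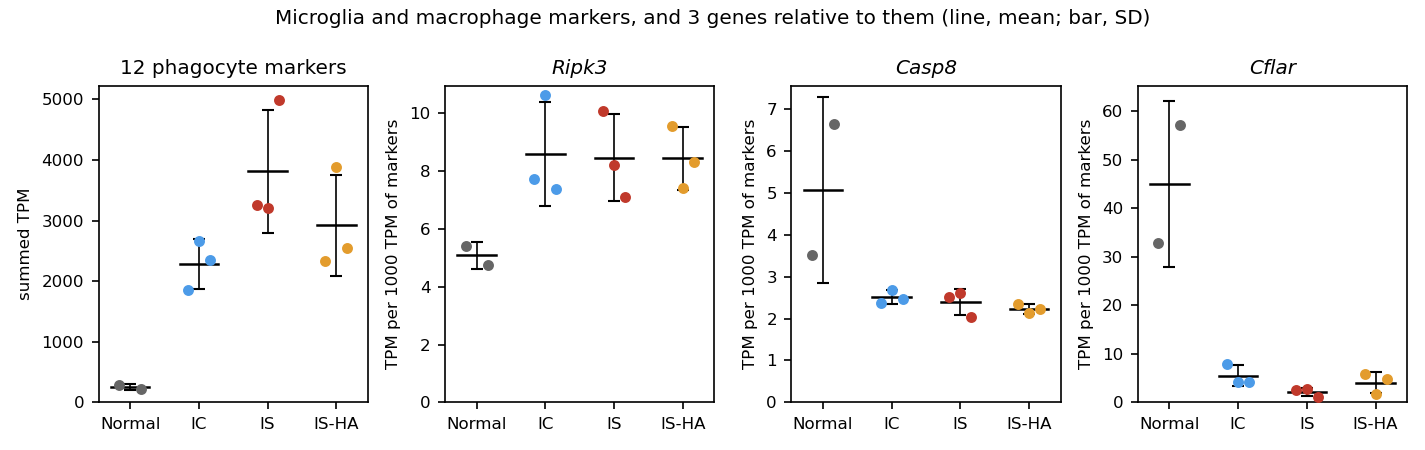
Summed TPM of 12 microglia and macrophage markers (first panel) and the TPM of Ripk3, Casp8 and Cflar per 1000 TPM of those markers on the y axis, by group on the x axis, with 1 point per rat, the mean as a line and the SD as a bar. Relative to the markers, Ripk3 is above, and Casp8 and Cflar are below, the Normal rats in all 9 hemorrhage rats.

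Other genes of the pathway were read as 6 lists of 64 genes in all, of which 63 were in the table and 61 were tested. The lists too were chosen with earlier results of these data known. Their counts are set beside the shares of all genes as a description only. Over the lists 26 rose and 0 fell in IC, 34 rose and 3 fell in IS, and 30 rose and 1 fell in IS-HA against Normal, where 10.9%, 18.8% and 15.1% of all tested genes rose and 2.66%, 17% and 7.71% fell. In IS against IC edgeR called 0 of the 61, as it called 0% of all tested genes, and 25 stood at an unadjusted p under 0.05, where 22.2% of all tested genes did. In IS-HA against IS 0 were called, where 0.00635% of all tested genes were called higher and 0% lower, and 12 stood at an unadjusted p under 0.05, where 8.94% of all tested genes did. Among the death receptors and their ligands, 4 of 6 tested genes rose in IS, where 18.8% of all tested genes did. The genes of both receptors of tumor necrosis factor were among them, with Tnfrsf1b at a log2 fold change of 4.01 (SE 0.40, adjusted p = 5.96e-05) and Tnfrsf1a at 3.02, from 17.9 ± 0.953 to 143 ± 13.9 TPM. Fas, the receptor that recruits FADD directly, was at 3.18 and the cytokine gene Tnf at 3.03 (SE 0.58), with Tnf at 3.49 to 4.3 TPM in IS. The median of the list was 3.02 in IS, 2.18 in IC and 2.48 in IS-HA.

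Complex I, which forms on the receptor and holds RIPK1 in a survival state through ubiquitin chains, had 6 of 21 genes higher and 2 lower in IS, where 18.8% and 17% of all tested genes were, and a median of 0.42. Birc3, a ubiquitin ligase of RIPK1, rose by a log2 of 4.14 (SE 0.49, adjusted p = 0.000139) and the adaptor Tradd by 3.11, while the deubiquitinase Otulin rose by 1.57 and the adaptor Traf2 by 1.28. The 2 genes that fell, named after their values were seen, were Xiap, an inhibitor of caspases, at -2.87 (SE 0.62, adjusted p = 0.0037), and Cyld, a deubiquitinase that releases RIPK1 from complex I, at -1.71 (SE 0.29, adjusted p = 0.000949). Xiap went from 28.9 ± 12.4 TPM in Normal to 3.9 ± 2.45 in IS and Cyld from 51.6 ± 12.5 to 15.6 ± 2.16.

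In the Toll-like and nucleic acid routes, which reach RIPK3 without a death receptor, 7 of 8 tested genes rose in IS, 5 in IC and 5 in IS-HA, where 18.8%, 10.9% and 15.1% of all tested genes did. Ticam1, the adaptor of Tlr3 and Tlr4 that binds RIPK3, rose by a log2 of 3.78 (SE 0.41, adjusted p = 9.41e-05) in IS and Tlr4 by 2.40, and the smallest called values were those of the double-stranded RNA kinase Eif2ak2 (1.29) and the interferon receptor Ifnar1 (1.00). Of the apoptotic caspases and their mitochondrial partners, 6 of 7 rose in IS (18.8% of all tested genes did), led by Bid, a substrate of caspase-8, at 2.90 (SE 0.28, adjusted p = 5.45e-05), and Bak1, a pore-forming protein of the mitochondrial membrane, at 2.24. Casp9, the apoptosome caspase, was at -0.84, short of the cutoff, and was named after its value was seen.

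Around Casp4, 9 of 10 pyroptosis genes rose in IS, 8 in IC and 8 in IS-HA, where 18.8%, 10.9% and 15.1% of all tested genes did. The cytokine gene Il1b went from 0.317 ± 0.0448 TPM in Normal to 15.1 ± 6.64 in IS, a log2 of 5.56 (SE 0.84, adjusted p = 0.000542), and the inflammasome adaptor Pycard rose by 4.27. Gbp5, a guanylate binding protein, rose by 1.35, and Gsdme, a pore-forming gasdermin, fell by 1.02 on the log2 scale (SE 0.26, adjusted p = 0.00934). Of 9 genes of the membrane events that follow MLKL or counter it, 2 rose in IS, a share near the 18.8% of all tested genes. They were Ninj1, which ruptures the membrane of dying cells, at 4.24 (SE 0.66, adjusted p = 0.00067), and Il33, an alarmin set free by lysis, at 2.12. The other 7, among them the membrane repair genes of the ESCRT machinery, did not pass the call, and the median of this list was 0.78.

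**Figure D5:**
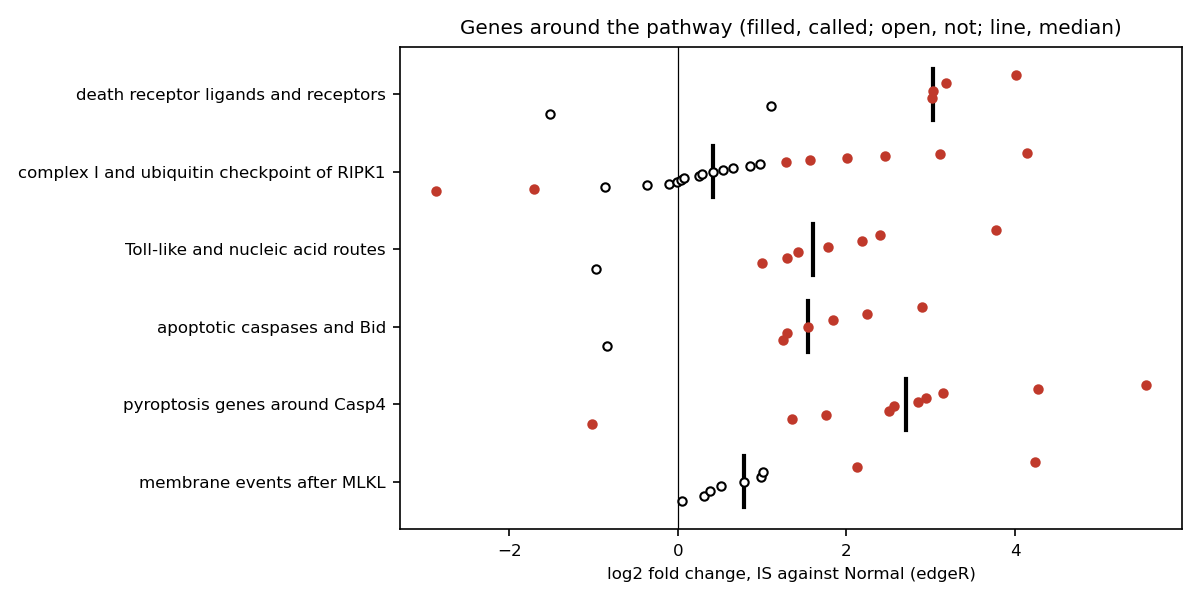
edgeR log2 fold change of IS against Normal on the x axis for the tested genes of 6 lists on the y axis, with filled points for calls, open points for genes not called and the list median as a line. The lists of death receptors (median 3.02) and pyroptosis genes (median 2.71) lie farthest to the right, and the complex I list (median 0.42) spreads over both sides of 0.

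The genes with the pattern most like each member were found by the root mean square difference of log2 CPM, each gene centred on its mean over the 11 rats. Nearest to Ripk3 were Cdk1, the mitotic kinase, at 0.14 and Clic1 at 0.16, where the median over all genes tested was 1.66. Cdk1 stood at 1.67 to 1.82 TPM in Normal and at 45 to 54 in IS. Nearest to Casp8 were Aurka, another mitotic kinase, at 0.15 and Rab13 at 0.16 (median 1.04), and nearest to Casp4 were Ttk, a kinase of the spindle checkpoint, at 0.26 and Inava at 0.27 (median 1.09). Nearest to Mlkl were Dock2, a guanine nucleotide exchange factor of leukocytes, and Tcirg1, a subunit of a proton pump, both at 0.25 (median 1.45). Ripk1 was nearest to Mknk1 at 0.08 and the unnamed gene ENSRNOG00000070904 at 0.09 (median 0.68), Fadd to Plod3 at 0.09 and Calu at 0.10 (median 0.64), and Zbp1 to F10 at 0.43 and Fhad1 at 0.48 (median 1.38). Cflar was nearest to Aspa, an enzyme of oligodendrocytes, at 0.10 and Phka1 at 0.12 (median 0.54). Aspa stood at 19.8 to 25.4 TPM in Normal and at 12.2 to 19.8 in IS. Within the set, Ripk1 and Fadd were nearest to each other (0.20), Ripk3 and Mlkl to each other (0.43), and Casp8 and Casp4 to each other (0.42), whereas the member nearest to Cflar, Fadd, stood at 0.73, above the median of all genes.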

How the data were processed

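The authors made stranded poly(A) libraries from the striatum, and the submitters' processing notes name fastp 0.20.0, FastQC 0.11.9, HISAT2 2.1.0, SAMtools 1.9, featureCounts, DESeq2 and the build mRatBN7.2. The strand setting of the counting is not given in the sources used here. Per gene, the authors deposited whole-number read counts without normalization, and TPM, in which counts were scaled by gene length and library. All 11 libraries were matched by the name in their labels, and 0 columns were left unmatched.

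Counts were filtered with filterByExpr, normalized by TMM and tested with edgeR 4.0.16 (R 4.3.3, quasi-likelihood, common dispersion 0.0691) in a single model of the 4 groups, adjusting by Benjamini-Hochberg for 15742 genes. Calls needed an adjusted p under 0.05 and an absolute log2 fold change of at least 1. SEs are the absolute log2 fold change over the square root of F. Ratios used log2 of TPM + 0.1 and exact permutation (SciPy 1.17.1). A gene at 3 counts, the floor, stands at 0.159 to 0.448 CPM, and floors cover counting error only. The scripts were tested on simulated data, and figures used matplotlib 3.10.9 in Python 3.11.15.

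Alternatives were DESeq2 1.42.0, its size factors in edgeR, library size alone, no filter, only the groups compared, no fold cutoff, a pseudocount of 0.5 TPM, each rat left out and the replicate block. The labels number different animals alike, and same-numbered rats of IS and IC deviated together with a correlation of -0.34 to 0.356, so the number was not taken to pair them. Values named are those of all 8 members, of up to 4 called genes per list with the largest and smallest absolute change in IS against Normal, and of the 2 genes nearest in pattern. Some list genes that this rule names are not reported here. Members and lists were chosen with earlier results of these data known.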

Additional observations from a re-analysis of the deposited data

How the results depend on the processing

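Precision was limited by 2 or 3 rats a group and by the low counts of Zbp1, Mlkl and Casp8 in Normal. Among all genes, the calls in IS against IC went from 0 to 610 with DESeq2 and to 964 without IS-HA replicate 2, and those in IS-HA against IS from 1 to 62 and 481.

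The number of members called stayed at 0 in all 18 alternatives of IS against IC and all 18 of IS-HA against IS. It was 6 to 7 in IS against Normal and 3 to 7 in IC against Normal, with 3 without Normal replicate 3 and 7 without a fold cutoff. In IS-HA against Normal it was 4 to 7, with 4 without either Normal rat and 6 without IS-HA replicate 2. With each rat left out, the log2 ratios ran from -2.72 to -2.39 (Cflar to Casp8), from 1.24 to 2.26 (Ripk3 to Casp8) and from -0.95 to -0.46 (Mlkl to Ripk3). With 1 Normal rat left the smallest exact p is 0.2. The Mlkl to Ripk3 ratio was -0.97 with a pseudocount of 0.5 TPM and -0.76 without IS replicate 4 (exact permutation p = 0.0364 and 0.0444). These p-values were not adjusted over the 3 ratios, and each is the smallest that the rats in its test can give.

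The sign turned only in values that had not been called. With each rat left out, Cflar ran from -0.20 to 0.11 in IS-HA against Normal (positive without Normal replicate 3 or IS-HA replicate 2) and from -0.05 to 0.22 in IC against Normal (negative without Normal replicate 1 or IC replicate 2), and library size alone put the former at 0.09. In IS against IC, Zbp1 ran from -0.57 to 0.09 and Casp4 from -0.20 to 0.22 (both positive without IC replicate 3, Casp4 also without IS replicate 3), and Mlkl from -0.19 (without IS replicate 4) to 0.84. In IS-HA against IS, Zbp1 ran from -1.30 to 0.32 (positive without IS replicate 2, IS-HA replicate 1 or IS-HA replicate 3), Mlkl from -0.64 to 0.28 (positive without IS replicate 4) and Casp4 from -0.02 (without IS-HA replicate 2) to 0.54. The causes were not tested.

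With the replicate number as a block, 6 members were called in IS-HA against Normal, 0 in IS against IC and 0 in IS-HA against IS, and in that fit Ripk1 was at 0.98, Cflar at 0.12 in IS-HA against Normal, and Mlkl at 0.36 in IS-HA against IS. The correlation of same-numbered rats of IS-HA and IS was -0.475 and -0.0894. With so few rats these values cannot settle whether the numbers pair the animals, and the number was not taken to pair them. Among the single genes and comparisons, 629 values kept side and sign, 17 calls were lost, 2 were gained and 16 signs turned.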
